A study of Mus musculus with 3 samples.

Results

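Secretogranins and prohormone processing genes build and load the dense-core vesicle, the store from which neurons and endocrine cells release peptides on demand. The 10 genes were taken by symbol, as the granin genes Scg2, Chgb, Vgf, Scg3 and Chga, the convertase genes Pcsk1 and Pcsk2 with their partner genes Scg5 and Pcsk1n, and the carboxypeptidase gene Cpe, out of 39179 genes measured. The set was chosen by the known role of its genes and by the high value of Scg2 in the GFP library, so values in that library are given as a description. RNA came from cultures grown from 1 line of mouse embryonic stem cells that carries 2 reporters. One puts eGFP under Cntn2, a cell adhesion gene active in the Purkinje cells of the heart. The other, delivered by lentivirus, puts mCherry under the promoter of the heart muscle myosin gene Myh6 (αMHC). All cultures received sodium nitroprusside, a nitric oxide donor, on day 4 and were sorted after 25 days of differentiation. NEG cells showed neither reporter, MHC cells showed mCherry, and GFP cells showed eGFP together with mCherry at a dim level. With 1 library for each population there is no replicate spread, no test and no p-value, and every interval covers counting error only.

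Secretogranins are acidic proteins that aggregate with hormones and neuropeptides in the trans-Golgi network as granules form, and several are themselves cut into active peptides. The convertases PC1/3 (Pcsk1) and PC2 (Pcsk2) cut precursors after pairs of basic residues, and carboxypeptidase E (Cpe) then trims the basic residues that are left. In the heart, atrial muscle cells are the textbook example of a cell with such granules, in which natriuretic peptides are stored.

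Cyclic AMP response elements are described in promoters of several granin genes, and the series title concerns cAMP signalling, so the member promoters were searched for that element. RefSeq windows of 300 bases (GRCm38.p6, the same assembly as mm10), from 250 bases before the transcription start to 50 after it, were given for 8 of the 10 genes. The full palindrome TGACGTCA, which reads the same on both strands, stood in 3 of these 8, those of Scg2, Chgb and Pcsk1, and in 1.79% of all 32851 windows. Its shorter core TGACG, searched on both strands and contained in the palindrome, stood in 7 of the 8, all but Pcsk1n, and in 20.8% of all windows. The 30 bases around the palindrome are shown first, followed by the core sites of Chga and of Scg5, with the match in capitals. The palindrome begins 68 bases before the start in Scg2 (chr1:79440076-79440105, minus strand), 72 in Chgb (chr2:132781559-132781588, plus strand) and 78 in Pcsk1 (chr13:75089768-75089797, plus strand). The core site shown begins 44 bases before the start in Chga (chr12:102554885-102554914, plus strand) and 175 in Scg5 (chr2:113829249-113829278, minus strand). Scg5 has 2 more matches to the core, both after the start. Starts here are those of RefSeq and differ from the starts in the gene coordinates given below. By those coordinates, the 30 bases shown for Chgb lie inside the gene, and those for Scg2 reach across its start.
Scg2: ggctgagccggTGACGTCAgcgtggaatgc
Chgb: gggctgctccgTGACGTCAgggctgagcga
Pcsk1: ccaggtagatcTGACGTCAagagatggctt
Chga: ggggcggtcctaTGACGtaatttcctgggt
Scg5: aaaggaggtaaaTGACGttcataggggtcg
These matches are letters in a window and say nothing of binding. The 3 genes with the full palindrome had very different levels: Scg2 had at least 1757 reads in each library, Chgb at most 38 and Pcsk1 at most 3.

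Among the granin genes as grouped here, without Scg5 and Pcsk1n, Scg2 was the only one with more than 38 reads in any library. Scg2 (ENSMUSG00000050711, chr1:79434669-79440090, mm10, protein-coding), the precursor of the peptide secretoneurin, had a size-factor-normalised count of 16631 in GFP, 3257 in NEG and 1779.7 in MHC. These rest on 18195, 2883 and 1757 recovered reads. The GFP library was thus highest, and the other two held a clear level as well. The fold was 9.35 (95% interval 8.90–9.82) over MHC and 5.11 (95% interval 4.91–5.31) over NEG, and NEG was 1.83-fold (95% interval 1.72–1.94) above MHC. As all values come from bulk populations, more cells with the transcript and more transcript per cell cannot be told apart.

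Chgb and Vgf followed the same order in GFP against the others, at levels near the minimum value of 20 used for calls. Chgb (ENSMUSG00000027350, chr2:132781278-132795079), encoding chromogranin B, had a value of 34.7 in GFP, 14.7 in NEG and 8.10 in MHC, from 38, 13 and 8 reads. Its fold in GFP was 4.29 (95% interval 1.97–10.6) over MHC and 2.37 (95% interval 1.23–4.84) over NEG. Vgf (ENSMUSG00000037428, chr5:137030295-137033351), a nerve growth factor-inducible granin and peptide precursor, had a value of 24.7 in GFP, 7.91 in NEG and 10.1 in MHC. Its 27, 7 and 10 reads gave a fold of 2.44 (95% interval 1.14–5.64) over MHC and 3.12 (95% interval 1.33–8.49) over NEG. Intervals of both genes lie above 1 and reach below 2 in each comparison, so a 2-fold difference was not secured at this depth.

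Scg3 and Chga stayed below a value of 20 in every library. Scg3 (ENSMUSG00000032181, chr9:75643264-75683996), whose protein anchors chromogranin A to the granule membrane, had 9 reads in GFP, 4 in NEG and 2 in MHC. Chga (ENSMUSG00000021194, chr12:102554969-102565027), encoding chromogranin A, the general blood marker of endocrine tumours, had 3 reads in GFP, 2 in NEG and 4 in MHC. Neither differed beyond counting error between GFP and MHC: the fold was 4.06 (95% interval 0.841–38.6) for Scg3, and Chga was 1.48-fold (95% interval 0.24996–10.1) higher in MHC. Chga was the only member other than Cpe that was not highest in GFP.

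**Figure D1:**
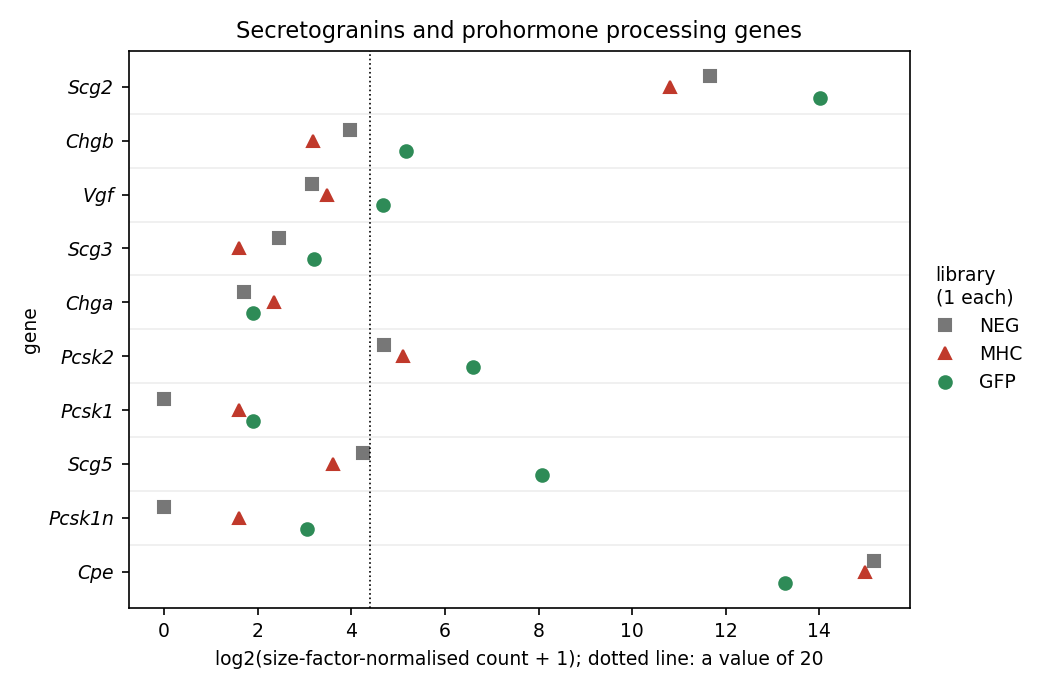
Size-factor-normalised counts of the 10 genes on a log2(value + 1) axis, with 1 point for each library (grey squares NEG, red triangles MHC, green circles GFP) and a dotted line at the minimum value of 20. Scg2 and Cpe lie far to the right of the line in all 3 libraries, the GFP point is the highest for 8 genes and the lowest for Cpe, and Scg3, Chga, Pcsk1 and Pcsk1n stay left of the line.

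Of the convertases and their partners, Scg5 had the widest separation between GFP and the other libraries. Scg5 (ENSMUSG00000023236, chr2:113776362-113829121) encodes 7B2, the chaperone that PC2 needs to become active. Its value was 268 in GFP, 18.1 in NEG and 11.1 in MHC, from 293, 16 and 11 reads. GFP exceeded MHC by 24.0-fold (95% interval 13.2–48.7) and NEG by 14.8-fold (95% interval 8.97–26.3), larger folds than those of Scg2 and with intervals that do not overlap its own.

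Pcsk2, the convertase that 7B2 serves, was also highest in GFP. Pcsk2 (ENSMUSG00000027419, chr2:143546156-143816285) had a value of 96.0 in GFP, 24.9 in NEG and 33.4 in MHC. On 105, 22 and 33 reads the fold was 2.87 (95% interval 1.93–4.38) over MHC and 3.86 (95% interval 2.42–6.42) over NEG. The interval over MHC reaches below 2, so a 2-fold difference from MHC was not secured at this depth. The gene spans 270130 bases and holds the antisense gene Gm12360, which had 47 reads in GFP, 14 in NEG and 18 in MHC. C630020P19Rik, which overlaps its start, had 14 reads in GFP and 0 in the others. Reads of these overlapping genes also add to Pcsk2, so its values are uncertain.

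The other convertase of dense-core vesicles and its inhibitor were near 0. Pcsk1 (ENSMUSG00000021587, chr13:75089826-75132498) had 3 reads in GFP, 0 in NEG and 2 in MHC, a level for which no fold is given. Pcsk1n (ENSMUSG00000039278, chrX:7919822-7924410), encoding proSAAS, an inhibitor of PC1/3, had 8 reads in GFP, 0 in NEG and 2 in MHC. With NEG set to a floor of 3 reads, the fold of GFP was 2.16, which leaves out the counting error of the 8 reads. The fold of 3.61 over MHC had a 95% interval of 0.720 to 34.9. Pcsk1n overlaps Eras, with 3, 0 and 1 reads, and is uncertain. Of the 2 convertase genes, Pcsk2 was thus the one measured above a value of 20.

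Cpe went the other way. Cpe (ENSMUSG00000037852, chr8:64592558-64693040) had a value of 9791 in GFP, 36835 in NEG and 32395 in MHC, from 10712, 32608 and 31982 reads. GFP was the low library, and NEG and MHC were close to each other. Relative to GFP, Cpe was 3.31-fold (95% interval 3.24–3.38) higher in MHC and 3.76-fold (95% interval 3.68–3.85) higher in NEG, and NEG was 1.14-fold (95% interval 1.12–1.15) above MHC. It was the only member that was lower in GFP at a fold of 2 or more.

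By the rule of size, a gene counts as higher or lower when its log2(value + 1) ratio reaches a fold of 2 and its larger value is at least 20. Between GFP and MHC, 5 of the 10 genes were higher in GFP (Scg5, Scg2, Chgb, Pcsk2 and Vgf), 1 was lower (Cpe) and 4 were below the minimum value. Over all genes tested in that comparison, 15.6% were higher and 16.4% lower. Between GFP and NEG the same 5 genes were higher and Cpe was lower, beside 14.1% and 15.0% of all genes. In each comparison 6 of the 10 genes were tested. Scg5, Chgb and Vgf reached the minimum value of 20 only in GFP, so the rule could not have called them lower there. Both comparisons share the GFP library and the set was proposed from it, so these counts describe the set and support nothing. With a pseudocount of 10, Vgf lay within 2-fold in both comparisons and Chgb in that with NEG, and 14.0% (MHC) and 12.5% (NEG) of all genes were higher. Without genes that share reads, Pcsk2 was left out and 4 of the 10 genes were higher in each comparison, beside 16.0% (MHC) and 14.8% (NEG). With no minimum value 7 were higher in each, with Pcsk1n and Scg3 added against MHC and Pcsk1n and Pcsk1 against NEG, beside 16.2% and 15.6%. At a minimum value of 100, Scg2 and Scg5 were left as higher and Cpe as lower in each comparison. Beside them, 14.6% of all genes were higher and 13.4% lower against MHC, and 13.0% and 12.1% against NEG.

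The MHC and NEG libraries, a comparison that does not hold the GFP library, were within 2-fold for each of the 3 genes tested. Of the 10 genes, 0 were higher and 0 lower at a fold of 2, with 7 below the minimum value, beside 5.35% and 5.21% of all genes. So few tested genes cannot be told apart from those shares. Pcsk2 shares reads and is not tested once such genes are left out. Among Scg2, Pcsk2 and Cpe, the fold of MHC over NEG was 1.34 (95% interval 0.761–2.42) for Pcsk2, while Scg2 and Cpe were lower in MHC, by the 1.83-fold and 1.14-fold given above, beyond counting error. With no minimum value, Pcsk1 and Pcsk1n counted as higher in MHC on 2 reads against 0, beside 13.5% of all genes. Heart muscle markers, which include Myh6, the gene behind the sort, separated the same libraries widely: 10 of 10 listed were higher in MHC than in NEG.

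**Figure D2:**
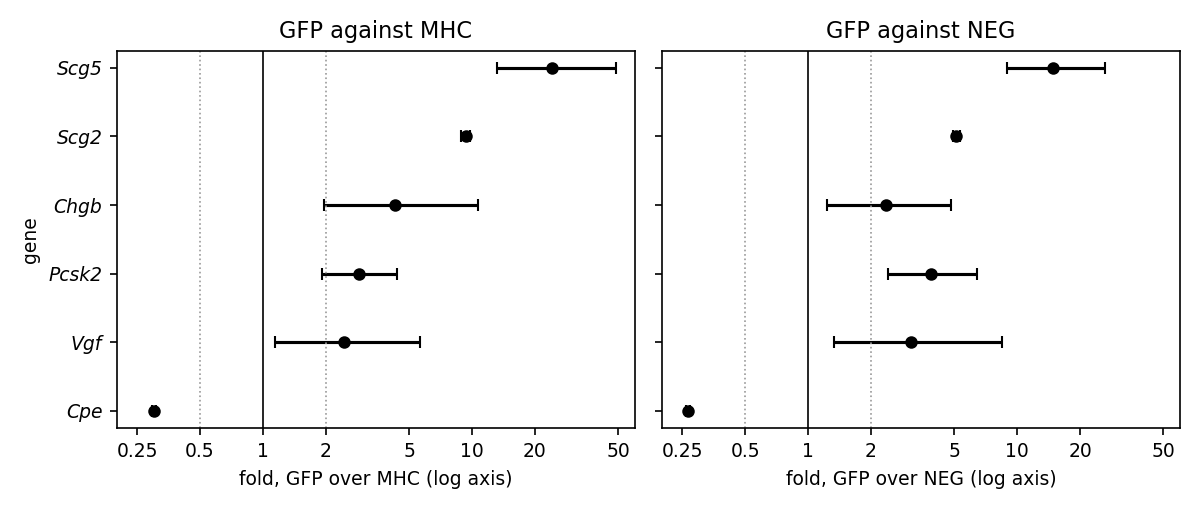
Fold of GFP over MHC (left) and of GFP over NEG (right) on a log axis for the 6 genes that reached a value of 20, with points for the ratio of the values and bars for the exact 95% counting interval. Dotted lines mark folds of 0.5 and 2. Scg5 lies farthest to the right in both panels, and Cpe lies at 0.302 and 0.266. The bars of Chgb and Vgf cross the line at 2 in both panels, and that of Pcsk2 crosses it in the left panel.

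Put per kilobase of exon, Scg2 and Cpe changed places between the libraries. In GFP, Scg2 had 6613 and Cpe 3753 normalised counts per kilobase, so Scg2 was 1.76-fold (95% interval 1.72–1.80) above Cpe. In NEG, Cpe was 10.9-fold (95% interval 10.5–11.3) above Scg2, and in MHC 17.5-fold (95% interval 16.7–18.4). Reads were counted over whole genes, introns included, and Cpe spans 100483 bases against 5422 for Scg2, so this order depends on the length used. Per kilobase of gene span, Scg2 was above Cpe in all 3 libraries, by 31.5-fold in GFP, 1.64-fold in NEG and 1.02-fold in MHC.

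Among 21842 protein-coding genes ranked on counts per kilobase of exon, Scg2 stood at the 98.8th percentile in GFP, the 93.3rd in NEG and the 87.4th in MHC. Cpe stood at the 97.6th, 99.4th and 99.3rd. Scg5 reached the 63.0th percentile in GFP, against the 35.8th in NEG and the 32.2nd in MHC. The remaining 7 genes lay between the 6.37th and the 37.3rd percentile in all libraries. On this scale the order in GFP was Scg2, Cpe, Scg5, Chgb, Pcsk2, Vgf, Pcsk1n, Scg3, Chga and Pcsk1. Chgb and Pcsk2, at 12.7 and 12.1 per kilobase of exon, were neighbours within counting error, as were Pcsk1n and Scg3 at 3.33 and 3.005. This order, too, depends on the length used. Per kilobase of gene span in GFP, Chgb had 2.52 and Pcsk2 0.355, and Pcsk1n had 1.59 and Scg3 0.202. Vgf, at 8.07, then lay above Scg5, at 5.08.

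The sum over the 10 genes hid this exchange. Their reads made up 0.0564% of all reads in GFP, 0.0752% in NEG and 0.0640% in MHC. Scg2 accounted for 61.9% of them in GFP (Wilson 95% interval 61.3% to 62.5%), 8.11% in NEG (7.83% to 8.40%) and 5.20% in MHC (4.96% to 5.44%). Cpe made up 36.4% in GFP (35.9% to 37.0%), 91.7% in NEG (91.4% to 92.0%) and 94.6% in MHC (94.3% to 94.8%). The 8 other genes together thus held little of the total, with Scg5 at 0.997% and the remaining 7 at 0.657% in GFP.

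Genes most like Scg2 were sought among 12877 protein-coding genes with a mean of 100 or more, by Euclidean distance over the 3 libraries in log2(value + 1) after subtracting each gene's mean. Daf2 and Cd55, neighbouring genes for complement decay-accelerating factor, were nearest at distances of 0.02 and 0.04. Cd55 had a value of 3930.5 in GFP, 752 in NEG and 405 in MHC, and Daf2 951, 189 and 100.3. They are near-identical copies between which reads can be split, so each is uncertain alone. Tlr1 (0.06) and Mpp7 (0.09) came next, where Mpp7 shares reads with an overlapping gene. With 3 libraries many genes share a pattern, and the distance shows no more than that.

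The nearest protein-coding neighbours on the chromosome, looked up after the members' values were seen, did not all follow the members. Ap1s3, 167 kb from Scg2 and encoding a subunit of a clathrin adaptor, had a value of 436 in GFP, 44.1 in NEG and 32.4 in MHC, 13.5-fold (95% interval 9.40–19.9) higher in GFP than in MHC. Grem1, a bone morphogenetic protein antagonist gene 17.7 kb from Scg5, had 23.8 in GFP, 1179 in NEG and 1076 in MHC. It was 45.3-fold (95% interval 30.7–69.6) lower in GFP than in MHC, opposite to Scg5. On the other side of Scg5, Arhgap11a had 479 in GFP, 201 in NEG and 185 in MHC. Cpe and its nearer neighbour Sc4mol were also opposite, with Sc4mol 2.36-fold (95% interval 2.27–2.45) higher in GFP than in MHC.

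Other genes of the regulated secretory pathway were mixed. Over 5 lists with 159 different genes, 24 of 110 tested were higher and 20 lower in GFP than in MHC, 21.8% and 18.2% beside 15.6% and 16.4% of all genes tested. Against NEG, 28 of 108 were higher and 24 lower, 25.9% and 22.2% beside 14.1% and 15.0%. The median log2 ratio was −0.08 against MHC and 0.06 against NEG, where all tested genes had 0.01 and 0.02. Each list held genes called higher and genes called lower, except the transcription regulators, with 0 higher (1 when scaled by total reads). In the exocytosis list, the 1 gene lower than in MHC (Rab3a) shares reads, and 0 were lower without such genes.

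Other convertases and peptide-modifying enzymes, all 20 tested, were higher for 5 and lower for 5 in GFP against MHC (median log2 ratio 0.25). Against NEG, 6 were higher and 6 lower (median 0.02). Against MHC the shares were 25% and 25%, beside 15.6% and 16.4% of all genes tested. Those against NEG were 30% and 30%, beside 14.1% and 15.0%. The higher genes were led by relatives of Cpe. The extracellular carboxypeptidase gene Cpz was 6.79-fold (95% interval 6.51–7.08) and Aebp1, which encodes a matrix-associated protein with a carboxypeptidase-like domain, 3.96-fold (95% interval 3.91–4.01) higher in GFP than in MHC. Cpd, chosen after its values were seen, encodes the trans-Golgi carboxypeptidase and was 3.36-fold (95% interval 3.26–3.45) higher. Cpxm2, a further member of the family, was 8.18-fold (95% interval 7.55–8.87) lower, as was the glutaminyl cyclase gene Qpct, by 11.3-fold (95% interval 7.80–16.9). Cpxm2 is uncertain, as it overlaps Fgfr2. Pam, which amidates peptide ends and also shares reads, and the lysosomal protease gene Ctsl lay within 2-fold in each comparison. Furin, the convertase of the constitutive pathway, lay within 2-fold in each comparison too, with 4170.0 in GFP, 6312 in NEG and 7740 in MHC (also chosen after its values were seen).

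For vesicle biogenesis and membrane genes, 5 of 19 tested were higher and 2 lower in GFP than in MHC (median log2 ratio 0.21), and 4 and 2 against NEG (0.21). Against MHC the shares were 26.3% and 10.5%, beside 15.6% and 16.4% of all genes tested. Those against NEG were 21.1% and 10.5%, beside 14.1% and 15.0%. Sv2a, a synaptic and granule membrane transporter-like gene, was 2.76-fold (95% interval 2.46–3.09) higher in GFP than in MHC. Hid1, needed for granule formation at the trans-Golgi network, was 2.56-fold (95% interval 2.27–2.89) higher than in MHC and within 2-fold of NEG. Slc18a1, the vesicular monoamine transporter gene of endocrine cells, was 2.42-fold (95% interval 2.05–2.87) higher but shares reads with an overlapping gene. Cyb561, which encodes the electron-transporting cytochrome of chromaffin granules, was 6.52-fold (95% interval 5.50–7.76) lower in GFP than in MHC and 5.01-fold (95% interval 4.20–5.997) lower than in NEG. The general secretory genes Atp6ap1, Arfip1 and Rab2a lay within 2-fold in each comparison, where Arfip1 is uncertain for its overlapping genes.

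Among regulated exocytosis genes, 8 of 34 tested were higher and 1 lower in GFP than in MHC, and 9 higher and 3 lower than in NEG, with medians near 0 (−0.13 and 0.07). Against MHC the shares were 23.5% and 2.94%, beside 15.6% and 16.4% of all genes tested. Those against NEG were 26.5% and 8.82%, beside 14.1% and 15.0%. Unc13b, which encodes a priming factor, had a value of 2593 in GFP, 239.5 in NEG and 294 in MHC, 8.83-fold (95% interval 7.82–9.997) over MHC and 10.8-fold (95% interval 9.41–12.5) over NEG. The Rab27 effector genes Sytl1 and Exph5 were 7.42-fold (95% interval 6.48–8.54) and 7.05-fold (95% interval 4.18–12.7) higher than in MHC. The other genes higher than in MHC, named after their values were seen to complete the 8, were Rab3c, Rph3al, Cplx2, Doc2b and Cadps2. Cplx2, which encodes a complexin, had 1169 in GFP, 654 in NEG and 316 in MHC, and Doc2b, which encodes a calcium sensor, had 209, 36.1 and 63.8. Syt7 and Rims2 were higher than in NEG by 3.09-fold (95% interval 2.15–4.54) and 2.23-fold (95% interval 1.82–2.76) and within 2-fold of MHC. Syt1 had 111.5 in GFP, 107 in NEG and 151 in MHC, and Snap25 had 23.8, 14.7 and 38.5. Rab3a was 2.56-fold (95% interval 2.32–2.82) lower in GFP than in MHC but shares reads with an overlapping gene, and Unc13a, also sharing reads, was 2.19-fold (95% interval 2.08–2.302) lower than in NEG. Rab27b was 2.38-fold (95% interval 2.07–2.74) lower than in NEG. Snap25 and Rims2 share reads with overlapping genes, and both were named after their values were seen, as was Syt7.

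**Figure D3:**
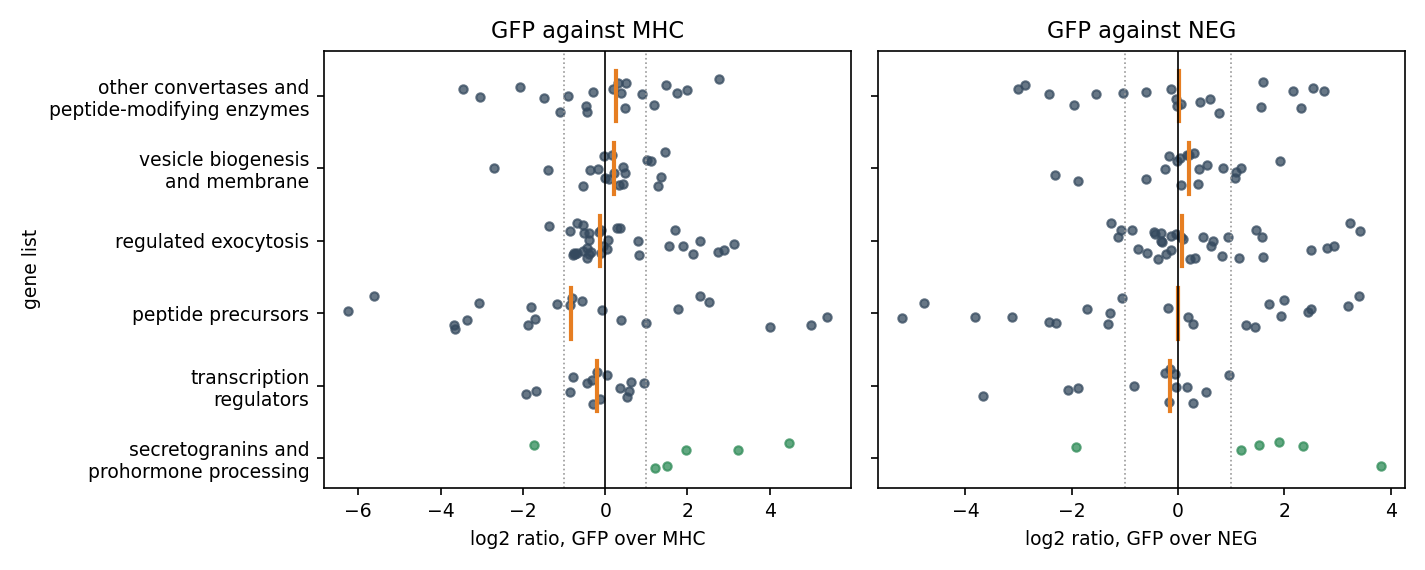
Log2(value + 1) ratios of GFP over MHC (left) and GFP over NEG (right), with 1 point for each gene whose larger value is at least 20, by list; orange bars are list medians, dotted lines mark a fold of 2 and vertical scatter is only for display. Points of every list fall on both sides of 0, and the peptide precursors spread most widely, from −6.25 to 5.38 against MHC.

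Peptide hormone and neuropeptide precursors, the cargo these enzymes act on, were mostly low or absent. Of 54 genes, 22 reached a value of 20 in any library, and Sst, Ins1, Nms and Pth had 0 reads throughout. Of 22 tested, 6 were higher and 10 lower in GFP than in MHC (median log2 ratio −0.83), and 9 were higher and 10 lower than in NEG (−0.01). Against MHC the shares were 27.3% and 45.5%, beside 15.6% and 16.4% of all genes tested. Those against NEG were 40.9% and 45.5%, beside 14.1% and 15.0%. The list thus split, with few genes within 2-fold.

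Proenkephalin was the second most abundant precursor on the list by its mean over the libraries. Penk, the precursor of the enkephalin opioids, had a value of 461 in GFP, 6511 in NEG and 35154 in MHC. It was 76.3-fold (95% interval 69.9–83.5) lower in GFP than in MHC and 14.1-fold (95% interval 12.9–15.5) lower than in NEG. GFP was the lowest library for Penk as for Cpe, but Penk was highest in MHC, 5.40-fold (95% interval 5.25–5.55) over NEG, and Cpe was highest in NEG. Tac2, the neurokinin B precursor, was also lower in GFP, with 3 reads against 181 in MHC and 120 in NEG. Adm2 was 28.6-fold (95% interval 19.6–43.4) lower in GFP than in NEG and 8.67-fold (95% interval 5.83–13.3) lower than in MHC.

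Precursors higher in GFP were fewer and, for the classical neuropeptides, low. Crh, encoding corticotropin-releasing hormone, had a value of 224 in GFP, 20.3 in NEG and 6.08 in MHC, 36.8-fold (95% interval 16.7–101) over MHC and 11.0-fold (95% interval 6.82–18.9) over NEG. Pnoc, the nociceptin precursor, had 125 in GFP, 50.8 in NEG and 2.03 in MHC, where the last value is 2 reads. Its fold over MHC was 61.8 with a 95% interval of 16.8 to 516. The growth factor gene Bdnf, whose product enters the regulated pathway in neurons, had 1448 in GFP, 156 in NEG and 249 in MHC, and was 9.29-fold (95% interval 7.80–11.1) higher in GFP than in NEG. Adm, the adrenomedullin precursor, had 6802 in GFP, 1716 in NEG and 3420 in MHC, and was 3.96-fold (95% interval 3.75–4.19) higher than in NEG and within 2-fold of MHC on the log2(value + 1) scale. Igf2, by far the most abundant gene of the list and one that is secreted constitutively, was 2.08-fold (95% interval 2.07–2.09) lower in GFP than in NEG. Of the granule peptides of atrial muscle, Nppa had a value of 59.4 in GFP, 14.7 in NEG and 766 in MHC, and shares reads with an overlapping gene (named after its values were seen).

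**Figure D4:**
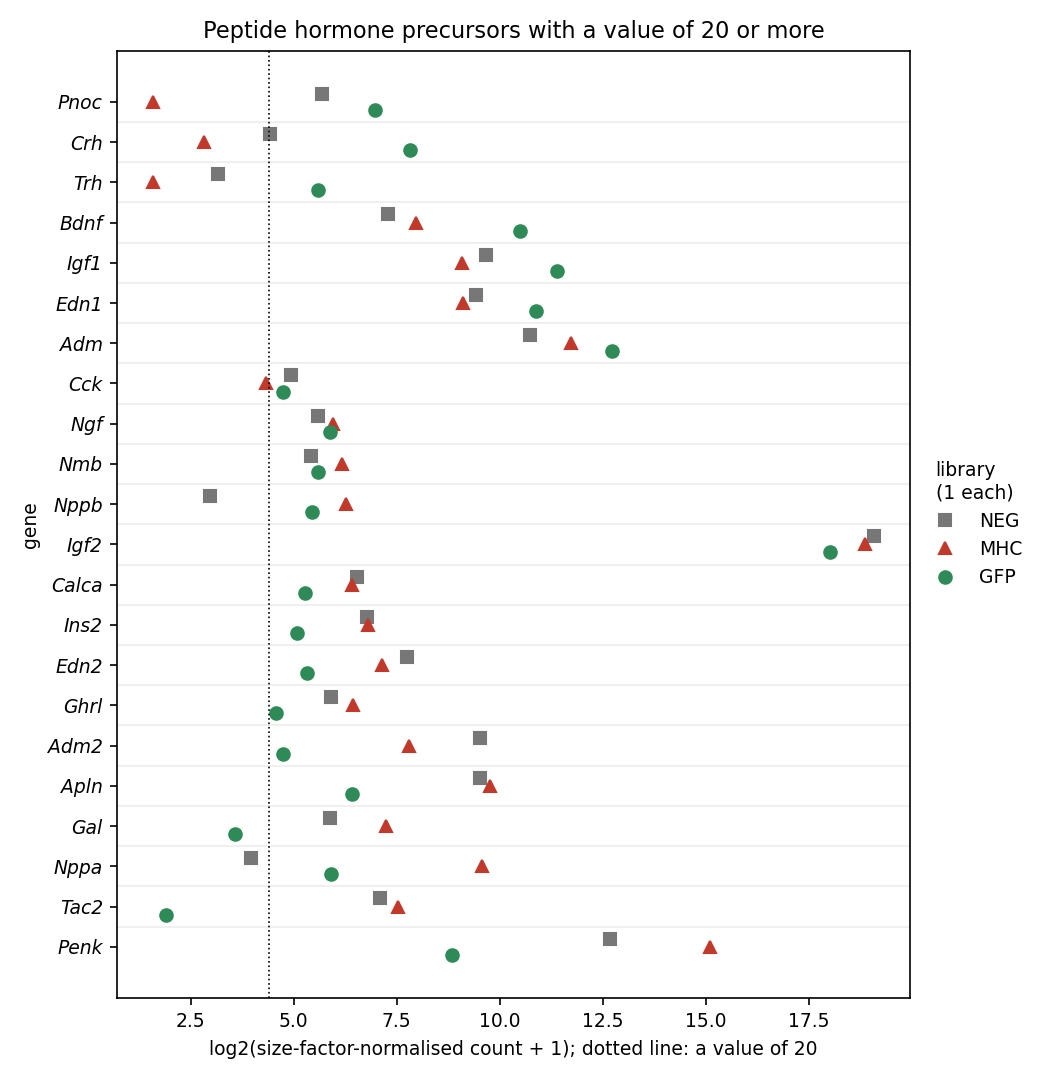
Size-factor-normalised counts on a log2(value + 1) axis for the 22 peptide precursor genes that reached a value of 20 (dotted line), ordered by the ratio of GFP over MHC, with 1 point for each library. GFP points lie to the right for Pnoc, Crh, Trh, Bdnf, Igf1, Edn1 and Adm and to the left for the genes from Igf2 down, except that Nppa is lowest in NEG.

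Among regulators of neuroendocrine genes, 0 of 15 tested were higher and 2 lower in GFP than in MHC (median log2 ratio −0.20). Against NEG, 0 of 13 were higher and 3 lower (median −0.16). Of all genes tested, 15.6% were higher and 16.4% lower against MHC, and 14.1% and 15.0% against NEG. Scaling by total reads made 1 regulator higher in each comparison, beside 19.4% (MHC) and 17.2% (NEG) of all genes. Rest, the repressor of neuronal genes that acts on several granin genes, was named after its values were seen and had a value of 2617 in GFP, 2160 in NEG and 1358 in MHC. Its corepressor gene Rcor2 was 3.20-fold (95% interval 2.86–3.59) lower in GFP than in MHC and 12.7-fold (95% interval 11.5–14.1) lower than in NEG, while Rcor1 lay within 2-fold. Isl1 was 3.802-fold (95% interval 3.15–4.61) lower in GFP than in MHC. Creb3l1, which encodes a regulator of secretory capacity, was 3.70-fold (95% interval 3.58–3.82) lower than in NEG, and Creb3l2 lay within 2-fold. Of the 23 regulator genes, 15 reached a value of 20 in at least 1 library and 8 stayed under it in every library. Those 8 included Insm1, Neurod1, Neurog3 and Nkx2-2, named after their values were seen.

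Markers of cells that use dense-core vesicles were set beside these results. Summed over 14 neuronal markers, the value was 409 in GFP, 768 in NEG and 511 in MHC. A value of 20 was reached by 8 of them in GFP, 5 in NEG and 5 in MHC. Of 8 tested, 2 were higher and 1 lower in GFP than in MHC, and 1 was higher and 2 lower than in NEG. Of all genes tested, 15.6% were higher and 16.4% lower against MHC, and 14.1% and 15.0% against NEG. Tubb3, at 77.7, 368 and 43.6, was the most abundant neuronal marker, although it shares reads with an overlapping gene. The 13 pancreatic and enteroendocrine markers summed to 180.1, 201 and 250.2, with Ins1 and Sst at 0 throughout. Of the 11 chromaffin and sympathetic markers, 3 of 8 tested were higher and 1 lower in GFP than in MHC (median log2 ratio 0.31). Against NEG, 3 of 7 were higher and 1 lower (median 0.16). The 11 markers summed to 6725 in GFP, 3693 in NEG and 3922 in MHC. Hand2 and Ddc, which other tissues express as well (Ddc overlaps another gene), made up most of that sum. Slc18a1, which shares reads, had 484 in GFP, 212 in NEG and 200 in MHC. Dbh and Th went the other way, with 12.8 and 6.40 in GFP, 23.7 and 13.6 in NEG and 23.3 and 39.5 in MHC. These last genes were named after their values were seen. The 7 glial markers summed to 727, 483 and 257, with 3 of 4 tested higher and 0 lower in GFP than in MHC (median log2 ratio 1.64) and 2 of 4 higher than in NEG.

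Lists of other cell types also differed between GFP and the other libraries. Shares over all genes tested were 15.6% higher and 16.4% lower against MHC, and 14.1% and 15.0% against NEG. Epicardial and mesothelial markers were higher for 10 of 10 in GFP against MHC and against NEG, with summed values of 179476 in GFP, 7276 in NEG and 7051 in MHC. Fibroblast markers summed to 1350539, 5270057 and 5250929, with 6 of 9 lower and 3 higher in GFP than in MHC. For heart muscle markers, 8 of 10 were lower in GFP than in MHC, 5 of 10 were higher in GFP than in NEG, and sums were 13684, 9280.0 and 303366. The parts of these and the glial cell types in the levels of Scg2, Scg5 and Cpe were not tested.

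For the series as a whole, recovered reads numbered 47289405 to 52826956 for each library. Cntn2 was highest in GFP, with 10045 against 204 in NEG and 228 in MHC. Myh6 was highest in MHC, at 186924. In GFP, which the labels give as dim for the Myh6 reporter, Myh6 had 4694, 39.8-fold below MHC and 1.22-fold (95% interval 1.17–1.28) above its 3843 in NEG.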

How the data were processed

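RNA of 3 sorted populations, with 1 library each, was analysed from the table the authors deposited. Per the labels' protocols, libraries were TruSeq, sequenced as single reads of 50 bases. The build mm10 and the tools STAR 2.3.0e, DESeq2 1.2.10, FastQC 0.11.2 and bedtools 2.17.0 are named, without roles, per the submitters' processing notes. The deposited signal is a read count divided by 1 size factor for each library. Each value was a whole multiple of 1 step (1.13 in NEG, 1.01 in MHC, 0.914 in GFP), and 100% came out whole within 0.01 after division, giving 47289405, 52826956 and 52109065 reads. No count model was fitted to these, since no residual degrees of freedom exist, so no gene is called by one.

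For 1011 pairs of a gene of 300 or more reads inside a host's intron, the host had at least as many reads in 100%, and likewise in 577 pairs on opposite strands. Counts thus cover whole genes on both strands, and a gene is called uncertain where an overlapping gene has at least 25% of its reads. Exon lengths are unions of GENCODE M21 exons, matched by identifier for 37607 genes. Promoter sequences are from RefSeq (GRCm38.p6).

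Ratios are on the log2(value + 1) scale, which understates differences of low genes. Each fold divides 1 deposited value by another and has an exact conditional Clopper-Pearson 95% interval. PCR copies of a molecule are counted as separate reads, so intervals are too narrow for molecules. The floor for a gene at 0 was 3 reads in that library. The 10 genes, the 5 pathway lists (159 genes, 2 of them matched by identifier) and the 7 marker lists were chosen with earlier results of these data known. The named-gene rule took, from each pathway list, genes of 100 or more in the higher library: the 3 of highest mean and the 2 highest and 2 lowest ratios past 2-fold of GFP over MHC and over NEG. From each marker list it took the 3 of highest mean and genes at 0, and for Scg2 the 5 nearest genes. Not all genes it gave are named, and some items are not reported here. The calculation was tested on simulated reads. Python 3.11.15, scipy 1.17.1 and edgeR 4.0.16 (TMM factors only) were used.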

Additional observations from a re-analysis of the deposited data

How the results depend on the processing

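Alternatives were a pseudocount of 10, scaling by total reads or by TMM factors, no minimum value or one of 100, leaving out overlapped genes, and gene span for length. Of 75 recomputed values for the 10 genes and for all other pathway genes together, 64 stayed within the limits set. Of 180 recomputed counts of single pathway lists, 30 moved by over 1.5 times, 13 of them with no minimum value. Vesicle genes higher than in NEG numbered 2 in place of 4 at a pseudocount of 10, exocytosis genes lower than in NEG 1 in place of 3 under scaling by total reads, and precursors lower than in MHC 19 in place of 10 with no minimum. At a pseudocount of 10, 3 of the 10 genes in place of 5 were higher in GFP than in NEG. At a minimum of 100, 2 were higher in GFP than in MHC and 2 than in NEG. Other pathway genes higher in MHC than in NEG then numbered 6 in place of 12, beside 3.94% in place of 5.35% of all genes. The 12 were out of 107 tested (11.2%). With no minimum, 2 of the 10 genes (Pcsk1 and Pcsk1n, at 2 reads) were higher in MHC than in NEG. Other pathway genes then numbered 32 in place of 20 lower in GFP than in MHC, and 23 in place of 12 higher and 18 in place of 7 lower in MHC than in NEG, since genes of few reads are tested. Of all genes, 21.4% were then lower in GFP than in MHC, and 13.5% higher and 12.0% lower in MHC than in NEG. Per kilobase of gene span, the log2 ratio of Scg2 over Cpe turned from −3.45 to 0.71 in NEG and from −4.13 to 0.026 in MHC, and moved from 0.82 to 4.98 in GFP, as Cpe is the far longer gene.

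Scaling by total reads shifted the median log2 ratio of all genes by 0.18 against MHC and 0.17 against NEG and changed no call of the 10 genes, nor did TMM factors. It turned the split of all genes from 15.6% higher and 16.4% lower to 19.4% and 14.1% in GFP against MHC. Of 72 single-gene log2 ratios recomputed, 67 stayed within their counting interval, and the other 5 (Scg2 and Cpe under scaling by total reads in both GFP comparisons, and Scg5 against MHC at a pseudocount of 10) kept direction and call. No paired analysis was possible because each population has 1 library, for which reason no library could be left out either. Depth limits Chga, Scg3, Pcsk1 and Pcsk1n, at 9 reads or fewer.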
